A study of Mus musculus with 49 samples.

Results

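Polyadenylated RNA of naive CD4 T cells from C57BL/6 mice was compared between 4 libraries labelled Elf4 KO and 3 labelled WT, which together make up 7 of the 49 samples in the series. The members were the libraries in the KO naive CD4 table, chosen by their labels, and no measured value entered the choice. All 7 were untreated and carry a time point of 0 h, and no sorting scheme, age, sex or source animal is given in the labels used here, so that the p-values measure the spread between these libraries, which may be technical. A second naive set, with 3 libraries of the Elf4 W250S genotype and 3 WT libraries of its own, and 6 ATAC-seq libraries of naive CD4 T cells (3 labelled Elf4 KO, 3 WT), were read beside it. ATAC-seq marks open chromatin by where a transposase can cut DNA. Untreated bone marrow-derived macrophages (BMDM; 3 Elf4 KO and 3 WT libraries at 0 h) were set beside them as another cell type with the same genotype label. All of these samples are of the C57BL/6 strain.

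Elf4 is a member of the ETS family, transcription factors that bind DNA sequences built around GGAA, and is known for holding CD8 T cells in quiescence and for regulating innate immune genes. Naive CD4 T cells circulate through lymphoid organs, entering with the help of Ccr7, survive on IL-7 and MHC contacts, and keep a small, resting transcriptome until their receptor meets antigen. Which transcripts differ between resting cells of the 2 labels, before any stimulus, is the question this comparison addresses.

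RNA values were CPM (reads per gene scaled to library depth, as deposited), and differences are given as log2(CPM + 1), KO-labelled minus WT, which understates the change of genes with few reads. In each library 12474 to 12831 genes had at least 1 CPM, and the deposited CPM do not give the number of reads. Cd4 was high in all 7 libraries, at 436 to 525 CPM in the KO-labelled and 423 to 434 CPM in the WT libraries. Of 17 B cell markers 14 were read, and the defining genes Cd79a (0.507 to 0.693 against 0.267 to 0.447 CPM) and Ms4a1 (at most 0.123 CPM) were near 0 in both groups. Cd8a lay at 0.167 to 0.448 against 0.0878 to 0.149 CPM, Lyz2 at 0.202 to 0.856 against at most 0.246 CPM, and Xist at most at 0.154 CPM. Summed levels overlapped, at 163 to 210 against 186 to 192 CPM for B cell markers, of which Ighm alone made up 156 to 196 against 184 to 189 CPM, and at 52.6 to 58.4 against 47.6 to 56.4 CPM for CD8 T cell markers (11 of 12 read), of which Prf1 made up 35.4 to 41.4 against 33.9 to 44.3 CPM. Single markers did separate: every KO-labelled library lay above every WT library for 6 of the 14 B cell markers, all at most at 2 CPM (Cd79a, Ighd, Cd74 at 0.906 to 1.36 against 0.280 to 0.473 CPM, H2-Aa, H2-Ab1 and H2-Eb1), and for Cd8a and Ctsw among the CD8 markers. Among all 12904 genes tested, 21.2% did not overlap between groups, counted in either direction. Tested genes reached 1 CPM in 3 libraries, as 3 of the 14 B cell markers did, so this share does not describe genes at the level of the others. Myeloid markers (11 of 16 read) summed to 23.8 to 40.2 against 28.2 to 35.8 CPM, with 2 higher (Csf1r and S100a8) and 2 lower (Itgam and Ctss) without overlap. Dendritic cell markers (7 of 12 read, Ccr9 among them) summed to 15.2 to 18.9 against 11.2 to 12.1 CPM, with Itgax at most at 0.093 CPM. Of these 7, 3 lay above WT without overlap (Ccr9, H2-Aa and Cd74) and 0 below. Regulatory T cell markers (12 of 13 read) summed to 87.7 to 118.5 CPM in KO-labelled and 72.5 to 80.4 CPM in WT libraries, with Foxp3 itself at 4.17 to 5.13 against 3.25 to 4.54 CPM. Of these 12, 5 lay above WT without overlap (Ctla4, Ikzf2, Ikzf4, Tnfrsf18 and Gpr83) and 0 below. In bulk RNA, more cells of a type and more RNA per cell cannot be told apart.

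The targeted gene did not differ with the label. Elf4 transcript stood at 208.5, 180.4, 178.1 and 189.9 CPM in the 4 KO-labelled libraries and at 185.5, 195.1 and 191.7 CPM in the WT libraries. The highest and the lowest of the 7 values were both KO-labelled, so the WT libraries lay inside the KO-labelled range. The means were 189 ± 13.8 (SD, n = 4) and 191 ± 4.87 CPM (SD, n = 3), a log2 difference of -0.014 with a 95% confidence interval from -0.17 to 0.14 (exact permutation test over the 35 splits, two-sided, p = 0.886; smallest possible p = 0.0286). In KO macrophages at 0 h Elf4 was at 19.1 to 25.5 CPM (SD 3.23, n = 3) against 105 ± 7.96 CPM in WT (SD, n = 3). W250S naive cells held 264.4 ± 13.6 against 235 ± 13.4 CPM (SD, n = 3 each). Gene-level CPM do not show where in the Elf4 gene the reads lay, so a deletion that leaves a transcript of the same abundance cannot be told apart from an intact gene, and the libraries are called by their label throughout. Elf4 spans X:48411049-48463132 (RefSeq, GRCm38.p6). Of the 12 other tested genes that start within 1 Mb of its start 0 were called by limma, where 8.03% of all genes tested were called. So few genes cannot show a difference from that share. Of the 10 ATAC-seq peaks assigned to Elf4, 0 were called by edgeR, and 2 were at an unadjusted p under 0.05, with differences of -1.02 and 0.79. Of all 47000 peaks tested, 0.00851% were called and 9.87% were under that unadjusted p.

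**Figure D1:**
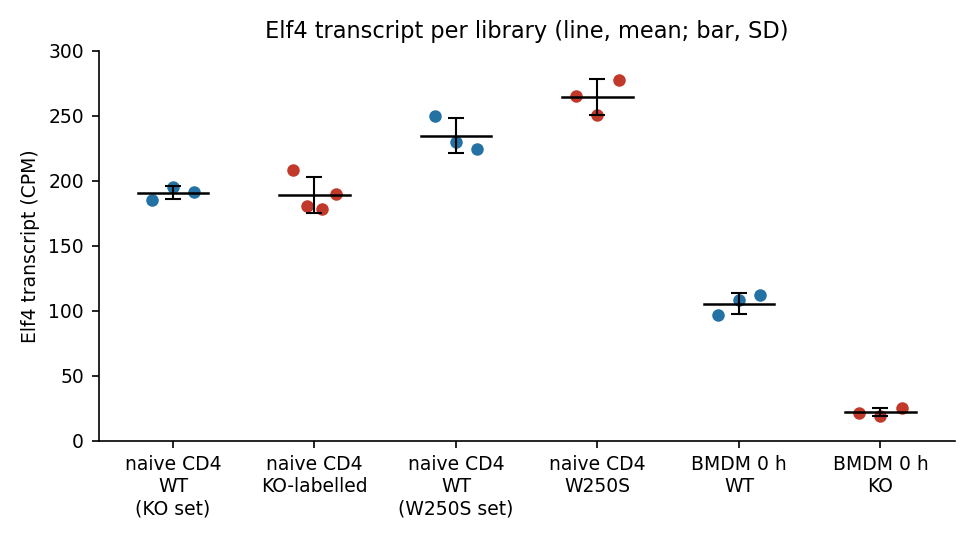
Elf4 transcript in CPM (y axis) for each library of the 2 naive CD4 sets and of untreated macrophages, with group means (line) and SD (bar). The 4 KO-labelled naive libraries (178.1 to 208.5 CPM) surround the 3 WT libraries (185.5 to 195.1 CPM), while KO macrophages lie at 19.1 to 25.5 CPM against 96.4 to 111.8 CPM in WT.

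Part of the variation between libraries did not follow the label. Immediate early genes, which are transcribed within minutes of a stimulus or of handling, summed to 3850, 3704, 3798 and 1176 CPM in the KO-labelled and to 2919, 2976 and 1152 CPM in the WT libraries (30 of 31 genes read). KO-labelled library 4 and WT library 3 thus formed a low pair within both groups. Fos, for example, was at 353, 350.1, 341 and 18.9 CPM against 122, 140.1 and 7.92 CPM. It was thus higher in KO-labelled libraries both within the low pair and among the other libraries. Heat shock chaperones summed to 3700 to 7008 CPM in KO-labelled libraries 1 to 3 but to 1571 CPM in library 4, and to 1871 to 3056 CPM in WT. Hspa1a, an inducible chaperone, was at 791, 1327, 1809 and 97.5 CPM against 555, 324 and 82.3 CPM and did not pass the test (log2 difference 1.41 ± 0.86 (SE), adjusted p = 0.349). It was called in 3 of 17 alternative settings (limma adjusted p down to 0.00388), and Jun in 2 of 17 (down to 0.00104). Erythroid and platelet markers (9 of 13 read) summed to 43.0 CPM in KO-labelled library 1, to 2.15 to 9.42 CPM in the other KO-labelled libraries and to 1.32 to 2.11 CPM in WT. Hbb-bs, a globin gene, was at 15.9, 2.81, 2.32 and 0.0184 CPM in the KO-labelled libraries and at most at 0.056 CPM in WT. The part of these library differences in the results that follow was not tested, apart from the counts made without libraries.

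Against this background, 1036 of 12904 genes tested (8.03%) passed an adjusted p of 0.05 in limma, 566 of them higher (4.39%) and 470 lower (3.64%) in KO-labelled libraries. The changes were modest: the median difference was 0.50 among the higher and -0.42 among the lower genes, and 34 of the 566 and 12 of the 470 were at least 1 in size. The KO-labelled and WT values did not overlap for 2741 of all genes tested (21.2%), and for 556 of the higher and 465 of the lower genes. Higher genes were mostly less abundant (median 7.01 CPM over the 7 libraries) than lower genes (median 14.95 CPM; 11.2 CPM over all genes tested). With at least 5 CPM required, 739 genes were called, 359 of them (48.6%) higher. The number of calls depended on single libraries. It was 541 without KO-labelled library 1, 536 without library 2, 727 without library 3 and 1380 without library 4, and it was 466, 895 and 583 without WT library 1, 2 and 3. With KO-labelled library 4 and WT library 3 both left out, an alternative chosen after the data were seen, 1161 genes were called, and of the 1015 earlier calls tested there 774 were called again.

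**Figure D2:**
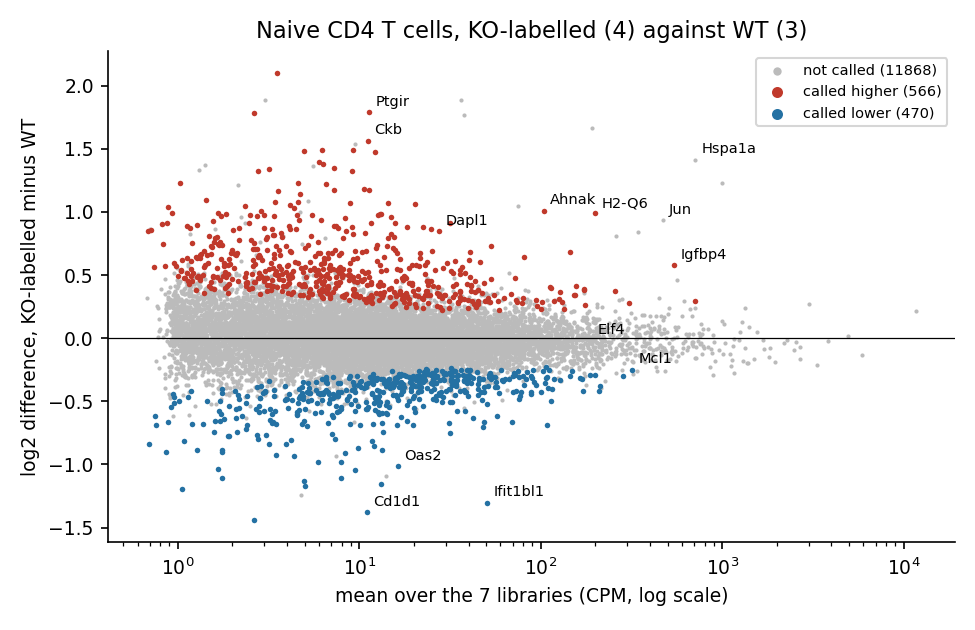
Each point is 1 of the 12904 genes tested, placed by its mean over the 7 libraries (x axis, CPM, log scale) and its log2 difference, KO-labelled minus WT (y axis). Called genes are red (566 higher) or blue (470 lower), and Elf4 sits at the zero line (-0.014). Hspa1a and Jun, with differences of 1.41 and 0.93, are not called here, but were in 3 and 2 of 17 alternative settings.

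The largest increase among called genes of at least 5 CPM was that of Ptgir, the receptor for prostacyclin, a Gs-coupled receptor that raises cyclic AMP. Ptgir stood at 15.5, 14.8, 18.7 and 17.8 CPM in the KO-labelled and at 3.83, 4.51 and 4.00 CPM in the WT libraries. Every KO-labelled library was more than 3 times above every WT library, a log2 difference of 1.79 ± 0.10 (SE; limma adjusted p = 7.53e-06). Fosb, an immediate early gene, had a larger difference without a call (1.88 ± 1.14, adjusted p = 0.346), at 93.3, 58.9, 61.7 and 1.52 against 11.6, 25.7 and 0.719 CPM. Prostanoid genes, a list chosen after values were seen, had 2 calls higher and 2 lower, beside 4.39% and 3.64% of all genes tested. Because of that choice, these counts do not test the family. Of 6 tested, Ptgir and Ptgfrn (a regulator of the prostaglandin F receptor; 13.5 to 16.2 against 6.54 to 7.89 CPM) rose, whereas the PGE2 receptors Ptger4 (12.6 to 14.6 against 19.5 to 23.8 CPM) and Ptger1 (38.7 to 43.4 against 49.6 to 54.2 CPM) fell. Tbxa2r, the thromboxane receptor, was at 17.7 to 19.1 against 18.3 to 21.02 CPM and Ptger2 at 1.51 to 2.74 against 1.18 to 2.09 CPM, and neither passed the test.

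The other large increases were of varied function. Ckb, the brain-type creatine kinase, was at 17.02, 18.3, 19.3 and 9.89 against 4.14, 5.72 and 4.17 CPM, with KO-labelled library 4 between the other 3 and WT (log2 difference 1.56 ± 0.19, adjusted p = 0.000662). Kcna2, a voltage-gated potassium channel, was at 20.3, 15.3, 18.4 and 14.8 against 5.78, 5.80 and 4.96 CPM (1.47 ± 0.11, adjusted p = 4.6e-05). Gprasp2, which sorts G protein-coupled receptors after uptake, was at 7.62 to 10.5 against 2.07 to 2.95 CPM. Prg4 (lubricin) was at 11.2, 17.5, 12.4 and 11.8 against 3.61, 4.40 and 3.99 CPM, Emilin1, an elastic-fibre glycoprotein, at 5.12 to 11.9 against 2.37 to 2.68 CPM, and Gpc1, a glypican, at 7.63 to 10.3 against 2.73 to 2.94 CPM. Of 5 stromal markers read, Col1a1 was at most at 0.160 CPM and Acta2 at most at 0.205 CPM, Pecam1 and Vim overlapped between groups, and the endothelial cadherin Cdh5 was higher without overlap, at 0.507 to 0.746 against 0.158 to 0.248 CPM. Its part in these results was not tested. Hspa12a, Ppic (cyclophilin C), Sp6, Nav2, Ptms (parathymosin) and Lrrc75b also rose, with log2 differences of 1.07 to 1.35 and no overlap between groups. Ahnak, a very large scaffold protein, was the most abundant of them, at 143, 113, 124 and 149.6 against 66.7, 56.3 and 72.6 CPM (1.01 ± 0.11, adjusted p = 0.000273).

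The largest decrease among called genes of at least 5 CPM was in Cd1d1, the MHC-like molecule that presents lipids to natural killer T cells. Cd1d1 was at 6.29, 5.52, 5.60 and 7.08 CPM in the KO-labelled and 18.2, 18.4 and 15.8 CPM in the WT libraries, with a wide gap between the groups (-1.38 ± 0.10, adjusted p = 3.41e-05). Ifit1bl1, a member of the interferon-induced IFIT family, followed with 25.4, 35.5, 30.2 and 31.9 against 84.0, 68.3 and 78.8 CPM (-1.30 ± 0.11, adjusted p = 5.3e-05). Signalling genes among the decreases were Mapk11 (p38 beta; 6.77 to 10.2 against 16.0 to 23.4 CPM), Tnfrsf13b (TACI, a receptor for BAFF and APRIL; 8.52 to 10.6 against 16.0 to 19.8 CPM) and Il1rl2 (the IL-36 receptor; 7.35 to 10.9 against 14.6 to 16.5 CPM). Epas1, which encodes the hypoxia factor HIF-2 alpha, was at 5.29, 6.53, 6.18 and 6.86 against 13.2, 12.9 and 15.5 CPM (-1.04 ± 0.10, adjusted p = 0.000156). Prr13 (4.47 to 5.27 against 11.6 to 12.2 CPM), Pqlc3, Inafm2, Zfp984, Sh3bgrl, Snx33 (a sorting nexin), Ulbp1 (a ligand of the NKG2D receptor) and Frrs1 were the remaining members, with differences of -0.75 to -1.11 and no overlap between groups. None of the 30 genes with the largest differences lost its call in any of the alternatives tried, except Oas2, described with the interferon genes.

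**Figure D3:**
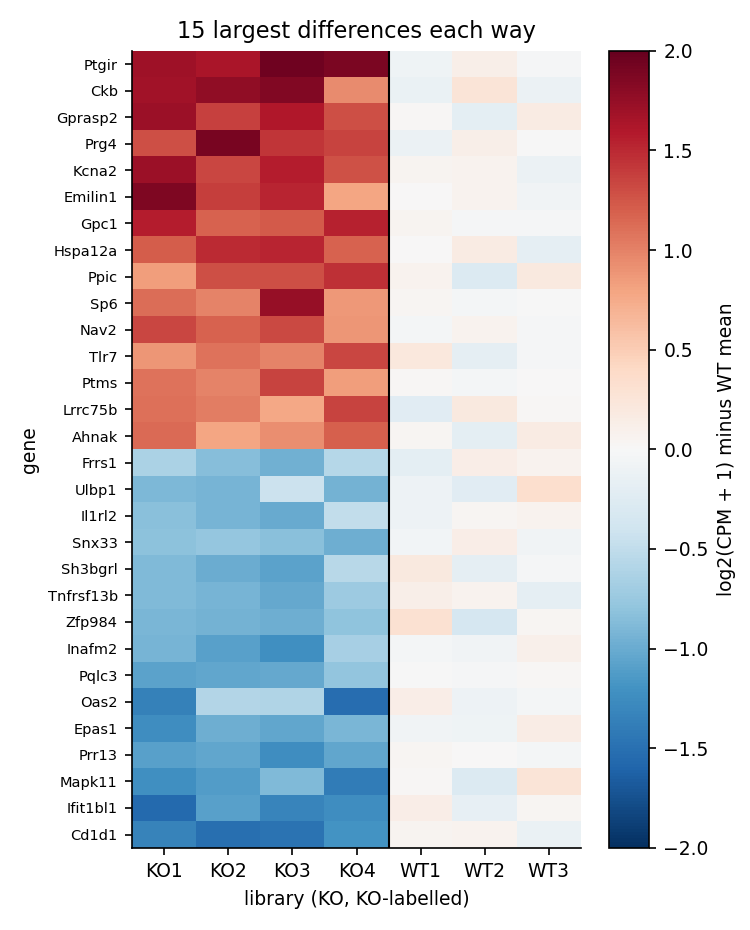
Log2(CPM + 1) minus the WT mean (colour, from -2 to 2) in each library for the 15 largest increases and 15 largest decreases among called genes with at least 5 CPM, non-overlapping groups and a gene name that is not a numbered or predicted model. All 4 KO-labelled columns are red for the upper and blue for the lower 15 genes. Library 4 is paler for Ckb and Emilin1, and Oas2 also varies among KO-labelled libraries (7.36 to 14.9 CPM).

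Because ETS factors bind GGAA-based sites, the sequence just upstream of the start was read. Genes were included if they had a tested ATAC-seq peak at the start and a RefSeq promoter overlapping it. The word CCGGAAG, or CTTCCGG on the other strand, was sought in the 250 bases upstream. It occurred in 6.91% of all RefSeq promoters and in 16.6% of the 6354 tested genes included. Among these it was found for 24 of 311 genes called higher (7.72%), 59 of 287 called lower (20.6%) and 969 of 5756 not called (16.8%). A start peak was tested for 454, 372 and 7781 genes of these sets, so the shares leave out genes without such a promoter. The higher genes were thus the set with the smallest share among the 3 sets read. Base composition and CpG content of the promoters were not compared, and a match is a description of the letters, not a binding site. Inafm2, Sh3bgrl and Aim2 are shown as lower genes that contain the word (RefSeq, GRCm38.p6; 250 bases ending at the base before the annotated start, given 5′ to 3′ on the gene's strand; capitals mark the word on either strand). Inafm2 (2:118745508-118745757, + strand) was at 5.47, 4.81, 4.26 and 6.75 against 11.0, 10.8 and 12.2 CPM, and Sh3bgrl (X:109095157-109095406, + strand), a small thioredoxin-fold protein, at 6.91, 6.32, 5.95 and 8.90 against 15.6, 11.9 and 13.4 CPM. Aim2 (1:173420354-173420603, + strand), the inflammasome sensor of cytosolic DNA, was at 10.5, 8.32, 8.29 and 8.73 against 14.0, 12.7 and 14.3 CPM (-0.56 ± 0.09, adjusted p = 0.00406).
Inafm2: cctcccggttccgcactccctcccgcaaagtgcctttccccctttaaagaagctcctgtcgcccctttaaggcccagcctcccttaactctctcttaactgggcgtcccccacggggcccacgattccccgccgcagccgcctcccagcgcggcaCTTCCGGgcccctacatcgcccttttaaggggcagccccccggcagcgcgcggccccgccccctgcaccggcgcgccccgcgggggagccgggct
Sh3bgrl: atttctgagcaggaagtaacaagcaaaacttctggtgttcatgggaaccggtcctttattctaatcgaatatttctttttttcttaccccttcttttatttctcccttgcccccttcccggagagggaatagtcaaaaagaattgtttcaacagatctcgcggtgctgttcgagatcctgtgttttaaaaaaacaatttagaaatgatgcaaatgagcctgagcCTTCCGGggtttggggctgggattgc
Aim2: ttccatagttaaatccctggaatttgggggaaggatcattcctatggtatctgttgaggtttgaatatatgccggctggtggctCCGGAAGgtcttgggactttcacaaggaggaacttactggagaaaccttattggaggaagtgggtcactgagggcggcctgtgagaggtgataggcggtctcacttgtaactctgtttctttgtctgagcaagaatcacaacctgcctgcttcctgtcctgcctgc

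Class I antigen presentation genes were among the lists with several members higher and none lower. Of 23 tested, 6 rose (H2-Q4, H2-Q6, H2-Q7, H2-T22, Nlrc5 and Calr) and 0 fell, beside 4.39% and 3.64% of all genes tested, and the list's median was 0.132 beside 0.005. H2-Q6, a non-classical class I gene, was at 259, 242, 256 and 257 CPM in the KO-labelled and 125, 139 and 118 CPM in the WT libraries (0.99 ± 0.07, adjusted p = 3.41e-05). H2-Q7 (736 to 799 against 609 to 651 CPM) and H2-Q4 (321 to 349.2 against 251 to 290.0 CPM) showed smaller increases, of 0.29 and 0.28. The H2-Q genes are near-identical copies, so reads may have been split between them, and the level of any single copy is uncertain. Nlrc5, the transactivator of class I genes, was at 155 to 183 against 121 to 149 CPM (0.34), and Calr, a chaperone of class I folding, at 169 to 217 against 144 to 153 CPM (0.38). The classical genes H2-K1 (0.09) and H2-D1 (-0.02) did not pass the test. The call on H2-Q6 held without each library in turn. Lost calls were H2-Q4 without KO-labelled library 1, 2 or 3 or WT library 1 or 3 (adjusted p up to 0.112), H2-Q7 without KO-labelled library 1, 2, 3 or 4 or WT library 1 or 2 (adjusted p up to 0.102), Nlrc5 without KO-labelled library 1, 2 or 3 or WT library 1 or 3 (adjusted p up to 0.101) and Calr without KO-labelled library 2 or WT library 1 or 3 (adjusted p up to 0.0736).

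Of 56 interferon-stimulated genes tested 4 rose and 5 fell, where 4.39% of all genes rose and 3.64% fell, so that the list's shares lay not far above those of all genes. The list's median was 0.089. Oas2, an antiviral oligoadenylate synthetase, was at 8.40, 14.9, 14.7 and 7.36 against 25.3, 21.3 and 22.3 CPM (-1.01 ± 0.20, adjusted p = 0.0111). Oas1a was at 0.551 to 1.11 against 2.54 to 3.18 CPM (-1.04 ± 0.14, adjusted p = 0.000987). Their relatives Oas3 (13.6 to 21.5 against 12.8 to 16.99 CPM) and Oasl2 (8.72 to 15.1 against 8.78 to 11.0 CPM) did not pass the test. The call on Oas2 was lost without WT library 1 (adjusted p = 0.0654) or with robust variance estimates (adjusted p = 0.065). Iigp1, an immunity-related GTPase, was higher (29.2, 40.9, 46.3 and 43.6 against 28.8, 23.9 and 24.1 CPM; 0.61), with library 1 close to WT, and lost its call without KO-labelled library 2, WT library 2 or WT library 3 (adjusted p up to 0.0604). Gbp3, a guanylate-binding protein, was at 3.06 to 3.68 against 1.90 to 2.33 CPM and lost its call without KO-labelled library 1 or 2 or WT library 2 or 3 (up to 0.0596). Outside the naming rule, and chosen after their values were seen, Samhd1 and Gbp9 were the other increases (0.39 and 0.30) and Stat2, Parp14 and Ifi209 the other decreases (-0.27, -0.40 and -0.33). The call on Stat2 was lost without each library in turn (adjusted p up to 0.153). Abundant members such as Ly6e (362 to 478 against 368 to 429 CPM) did not pass the test.

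Innate sensors, a list chosen after values were seen, also split, with 2 of 12 tested higher and 3 lower (4.39% and 3.64% of all genes). Tlr7, the endosomal sensor of single-stranded RNA, was at 10.0, 11.7, 10.9 and 14.2 against 5.95, 4.31 and 4.89 CPM (1.07 ± 0.12, adjusted p = 0.000471). Nod1, a cytosolic sensor of bacterial peptidoglycan, was at 21.1 to 26.0 against 10.2 to 14.6 CPM (0.88). Tlr2, which senses lipoproteins, was lower at 0.881 to 1.32 against 2.33 to 2.59 CPM (-0.66), as were Aim2 and Tmem173 (STING; -0.35). NF-kB targets and brakes included 2 decreases among 19 tested: Nfkbie, an inhibitor of NF-kB, at 10.4 to 11.1 against 13.8 to 16.7 CPM (-0.49), and the adhesion molecule Icam1 at 5.55 to 8.93 against 10.4 to 12.8 CPM (-0.68). Of the 9 tested genes of the IL-1 family and inflammasome, Aim2 alone was called.

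Genes of the resting state gave 3 increases and 1 decrease among 29 tested, beside 4.39% and 3.64% of all genes, with a median of 0.011. Dapl1 was at 32.4, 34.1, 37.2 and 32.9 against 20.3, 18.3 and 17.04 CPM (0.85 ± 0.08, adjusted p = 0.000121). Igfbp4, an IGF-binding protein, was at 548, 788, 626 and 575 against 422, 452 and 387 CPM (0.58 ± 0.12, adjusted p = 0.0115). Lef1, a TCF family factor, was at 254 to 311 against 207 to 235 CPM (0.37), and Slfn2, which maintains T cell quiescence, at 241 to 276.1 against 286 to 334 CPM (-0.30). The call was lost on Lef1 without KO-labelled library 1 or 2 or WT library 1 or 3 (adjusted p up to 0.0712) and on Slfn2 without KO-labelled library 1, 2 or 3 or WT library 1 or 3 (adjusted p up to 0.134). Tcf7 (0.03), Btg1 (-0.03) and Il7r (-0.05) did not pass the test. Mcl1, a survival factor of the BCL-2 family, was the most abundant decrease, at 281 to 309 against 340.4 to 359.9 CPM (-0.25, adjusted p = 0.0472), and its call was lost without KO-labelled library 1, 2 or 3 or WT library 1, 2 or 3 (up to 0.153).

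Of 20 memory and activation genes tested 4 rose and 1 fell, and of 18 homing receptors 2 rose (Ccr9 and Cd44), where 4.39% of all genes rose and 3.64% fell. The memory list had a median of 0.185, and its 29 genes read summed to 461 to 510 CPM in the KO-labelled and 398 to 417 CPM in the WT libraries, without overlap, with Ahnak alone at 113 to 149.6 against 56.3 to 72.6 CPM. The homing list had a median of -0.017. Ccr9, the receptor that guides cells to the gut and is carried by recent thymic emigrants, was at 6.01 to 7.53 against 4.11 to 4.52 CPM (0.54). Il2rb, the IL-2 and IL-15 receptor beta chain, was at 8.49, 8.48, 8.44 and 8.51 against 4.67, 6.39 and 5.47 CPM (0.55 ± 0.10, adjusted p = 0.00596). Ly6c1 was at 46.2 to 49.5 against 34.04 to 39.2 CPM (0.37), and Tnfsf8 (CD30 ligand) at 34.7 to 52.1 against 53.4 to 60.8 CPM (-0.49). Cd44, the adhesion receptor used to mark memory cells, was at 20.1 to 26.4 against 17.3 to 19.2 CPM (0.34), and its call was lost without KO-labelled library 1, 2 or 3 or WT library 1, 2 or 3 (up to 0.132). The call on Tnfsf8 was lost without the same libraries (up to 0.0992). S1pr1 and Cd69 did not pass the test, with differences of 0.13 and -0.05. Markers of immature T cells rose for 4 of 9 tested: Ccr9, Dntt (terminal transferase; 3.70 to 5.62 against 2.297 to 3.02 CPM), Themis (178 to 205 against 148 to 166 CPM) and Tox (28.3 to 32.1 against 20.4 to 26.4 CPM). The call on Ccr9 held without each library in turn. Calls were lost on Dntt without WT library 1 or 3 (adjusted p up to 0.0895), Themis without KO-labelled library 1, 2 or 3 or WT library 1, 2 or 3 (adjusted p up to 0.131) and Tox without KO-labelled library 1, 2 or 3 or WT library 2 or 3 (adjusted p up to 0.0969). The list's summed level was 963 to 1021 against 919 to 946 CPM.

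T cell receptor signalling genes gave 5 increases and 0 decreases among 38 tested (4.39% and 3.64% of all genes), with a median of 0.026. Cd6 (153 to 188 against 122 to 144 CPM; 0.41) and Cd5 (104 to 140.2 against 90.3 to 105 CPM; 0.39) are surface receptors that dampen T cell receptor signals, Ctla4 (1.96 to 3.59 against 1.03 to 1.51 CPM; 0.66) is an inhibitory receptor also carried by regulatory T cells, and Ptpn22 (42.8 to 47.9 against 37.6 to 38.7 CPM; 0.27) is an inhibitory phosphatase. Themis was the other member. Calls were lost on Cd6 without WT library 1 (adjusted p up to 0.065), Cd5 without KO-labelled library 1, 2 or 3 or WT library 1 or 3 (adjusted p up to 0.114), Ctla4 without KO-labelled library 2 or WT library 1 or 3 (adjusted p up to 0.0718) and Ptpn22 without KO-labelled library 1, 2 or 3 or WT library 1, 2 or 3 (adjusted p up to 0.0981). Among cytokine receptors and JAK-STAT genes 4 of 30 rose (Il2rb, Il27ra, Il12rb1 and Stat4) and Stat2 fell. Il12rb1, an IL-12 receptor chain, was at 0.898 to 1.76 against 0.458 to 0.858 CPM, and its call was lost without WT library 1 or 3 (up to 0.168). Stat4, which relays IL-12 signals, was at 6.53 to 7.31 against 4.10 to 5.57 CPM (0.51), and its call was lost without WT library 1 or 3 (up to 0.0651). Of 9 regulatory T cell markers tested 2 rose, Ctla4 and Gpr83, the latter at 14.5 to 23.6 against 8.26 to 11.2 CPM (0.79 ± 0.15, adjusted p = 0.00736).

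Subunits of the Arp2/3 complex, which nucleates branched actin, were examined in a list chosen after values were seen. Of 20 tested actin genes 3 fell and 1 rose, beside 3.64% and 4.39% of all genes tested. Arpc1b was at 29.5, 33.0, 39.1 and 34.6 against 49.2, 54.4 and 55.5 CPM (-0.63 ± 0.09, adjusted p = 0.00162). Arpc5 was at 156, 141, 143 and 157 against 220.4, 186 and 194 CPM (-0.42 ± 0.08, adjusted p = 0.00697), and Actr2 at 147 to 156 against 174 to 206 CPM (-0.32). Arpc3 was higher, at 13.1 to 16.8 against 9.51 to 12.5 CPM (0.44). Calls were lost on Actr2 without KO-labelled library 2 or WT library 1 or 3 (adjusted p up to 0.0632) and Arpc3 without KO-labelled library 1 or 3 or WT library 1 or 3 (adjusted p up to 0.128). Actb (2042 to 2529.7 against 2243 to 2319 CPM) did not pass the test, with a difference of -0.01.

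The remaining lists held 0 to 3 calls each, where 8.03% of all genes were called. Glycolysis had 2 increases of 22 tested (Tpi1, 9.27 to 11.4 against 6.94 to 7.98 CPM, and Ldhb), cholesterol synthesis 2 of 28 (Scd2, a desaturase, 88.7 to 107 against 48.7 to 68.1 CPM, and Mvd), and the nuclear-encoded respiratory chain 1 of 63 (Uqcrh). Cytosolic ribosomal protein genes had 2 increases of 74 (Rpl23a and Rps4x), yet 62 of the 74 differences were above 0, with a median of 0.164. Ribosomal sums were 6783 to 7503 CPM in the KO-labelled and 5714 to 7428 CPM in the WT libraries, so the groups overlapped. Respiratory genes gave 53 of 63 differences above 0 (median 0.12), and their sums did not overlap, at 879 to 916 against 791 to 845 CPM. Over all genes tested 6587 of 12904 differences were above 0. Spliceosome genes had 0 of 38 called, chromatin regulators 1 of 47 (Tet1), amino-acid stress genes 1 of 26 (Aldh18a1, lower) and cell cycle genes 3 of 17 (Cdkn2c higher, Mcm6 and Cdt1 lower). Calls were lost on Ldhb without KO-labelled library 1, 3 or 4 or WT library 1 or 3 (adjusted p up to 0.137), Mvd without KO-labelled library 1, 2 or 3 or WT library 1, 2 or 3 (adjusted p up to 0.156), Uqcrh without WT library 1 or 3 (adjusted p up to 0.0697), Rpl23a without KO-labelled library 1, 2 or 3 or WT library 1 or 3 (adjusted p up to 0.155), Rps4x without KO-labelled library 1, 2, 3 or 4 or WT library 1 or 3 (adjusted p up to 0.194). The same was seen on Tet1 without KO-labelled library 1, 3 or 4 or WT library 1 or 3 (adjusted p up to 0.153), Aldh18a1 without KO-labelled library 1, 2 or 3 or WT library 1, 2 or 3 (adjusted p up to 0.105), Cdkn2c without KO-labelled library 1, 2 or 4 or WT library 1, 2 or 3 (adjusted p up to 0.143), Mcm6 without KO-labelled library 1, 2 or 3 or WT library 1, 2 or 3 (adjusted p up to 0.109), Cdt1 without KO-labelled library 2, 3 or 4 or WT library 1, 2 or 3 (adjusted p up to 0.0949). Without the remaining libraries these calls held. Immediate early genes had 1 call of 27, Sik1, a kinase induced by cyclic AMP, at 24.5, 16.3, 19.2 and 14.7 against 10.2, 11.2 and 8.48 CPM (0.83 ± 0.15, adjusted p = 0.00568). Heat shock chaperones had 2 of 18, Bag3 (8.50 to 9.92 against 5.56 to 6.63 CPM; 0.57) and Dnajb4 (0.42; lost without KO-labelled library 1, 2 or 3 or WT library 1, 2 or 3, adjusted p up to 0.142). Among ETS factors 2 of 12 fell: Elf2 was at 51.6, 46.8, 49.7 and 53.7 against 66.0, 64.9 and 67.7 CPM (-0.39 ± 0.07, adjusted p = 0.00435), and Etv3 at 79.8 to 88.3 against 96.7 to 102 CPM (-0.25; lost without KO-labelled library 1 or 2 or WT library 1, 2 or 3, adjusted p up to 0.117). Among cytokine feedback genes 1 of 12 fell, Socs4 (38.0 to 49.5 against 51.0 to 64.4 CPM), and among helper lineage genes 2 of 13 rose, Ctla4 and Rora (5.93 to 8.46 against 4.61 to 5.50 CPM). Calls were lost on Socs4 without KO-labelled library 1, 2 or 3 or WT library 1 or 3 (adjusted p up to 0.121) and Rora without KO-labelled library 1, 3 or 4 or WT library 1, 2 or 3 (adjusted p up to 0.168). The abundant ETS factor Ets1 and the close relative Elf1 did not pass the test, with differences of 0.05 and 0.09.

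A few calls were on markers of other cells. Igkc, the immunoglobulin kappa constant gene, had the largest fitted difference of all called genes (2.10 ± 0.46, adjusted p = 0.0171), at 6.70, 6.53, 8.98 and 0.991 CPM in the KO-labelled and 0.0954, 0.0374 and 1.21 CPM in the WT libraries. The groups overlapped, as KO-labelled library 4 lay below WT library 3, and the call was lost without KO-labelled library 1 or 2 or WT library 1 or 2 (up to 0.0886) and with robust variance estimates (0.138). In the W250S set Igkc was at 0.131 to 2.59 against 0.724 to 2.25 CPM. Ighd, the other B cell marker called, was at 1.42 to 1.99 against 0.686 to 0.982 CPM, and Ctsw, a cathepsin of cytotoxic cells, at 4.95 to 5.31 against 2.45 to 3.99 CPM. Ighd passed the filter of 1 CPM in 3 libraries only through the KO-labelled libraries, where it was high, so its call is not independent of that filter. Calls were lost on Ighd without KO-labelled library 1 or 2 or WT library 1, 2 or 3 (adjusted p up to 0.109) and Ctsw without KO-labelled library 1, 2 or 3 or WT library 1 or 3 (adjusted p up to 0.0652). Among myeloid markers Itgam and Ctss were lower (0.565 to 0.844 against 1.17 to 1.37 CPM, and 13.0 to 14.5 against 16.7 to 19.4 CPM), while others, too low to test, stood higher in KO-labelled libraries: Csf1r at 0.0737 to 0.278 against 0.0238 to 0.0276 CPM, S100a8 at 0.142 to 0.643 against at most 0.0176 CPM, and Lyz2 at a mean of 0.480 against 0.0881 CPM. The calls were lost on Itgam without KO-labelled library 1, 2 or 3 (adjusted p up to 0.0944) and Ctss without WT library 1 (adjusted p up to 0.0697). Itgam passed the filter only through the WT libraries and was tested in 12 of the 17 alternative settings, none of them without a WT library. Ddx3y, on the Y chromosome, was at 17.3 to 21.3 against 21.4 to 28.8 CPM (-0.38) and lost its call without KO-labelled library 1 or 2 or WT library 1 or 3 (up to 0.152), and the other 3 Y-linked genes tested were not called.

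The W250S naive libraries have WT controls of their own, shared with no KO-labelled library, and there 516 of 12397 genes were called (4.16%), 410 higher (3.31%) and 106 lower (0.855%). With median-ratio scaling the split was 210 higher and 169 lower. It was 160 and 49 without W250S library 1, 165 and 39 without library 2 and 233 and 97 without library 3, and the overlaps below were not recomputed under these settings. The median difference over all genes was 0.074 there, beside 0.005 in the KO-labelled set. Ptgir was at 17.8, 14.2 and 21.4 CPM in W250S and 4.61, 5.60 and 2.71 CPM in its WT libraries, Cd1d1 at 4.81, 4.07 and 4.74 against 9.70, 12.6 and 12.7 CPM, and H2-Q6 at 159.5, 167 and 175 against 72.9, 69.4 and 73.6 CPM. Of the 533 genes called higher in KO-labelled cells and tested there, 250 were also called higher (46.9%, or 61% of the W250S increases) and 527 had a positive difference. Of 457 called lower, 85 were also called lower (18.6%, or 80.2% of the W250S decreases), and 426 had a negative difference. None of these was called in the opposite direction. Of all 12231 genes tested in both sets, 8447 (69.1%) shared a sign. Across the 990 genes the 2 differences had a Pearson r of 0.918, and it was 0.709 across all 12231 genes tested in both sets, over genes, which are not independent replicates. A test of the KO-labelled minus the W250S difference called 0 of 12230 genes in limma (623, or 5.09%, at an unadjusted p under 0.05). Among named genes the largest such differences were those of Igkc (2.57, adjusted p = 0.812) and Oas2 (-1.22, adjusted p = 0.656; W250S 7.42 to 9.28 against 5.77 to 8.31 CPM). A p above the threshold does not show that the 2 genotypes act alike.

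**Figure D4:**
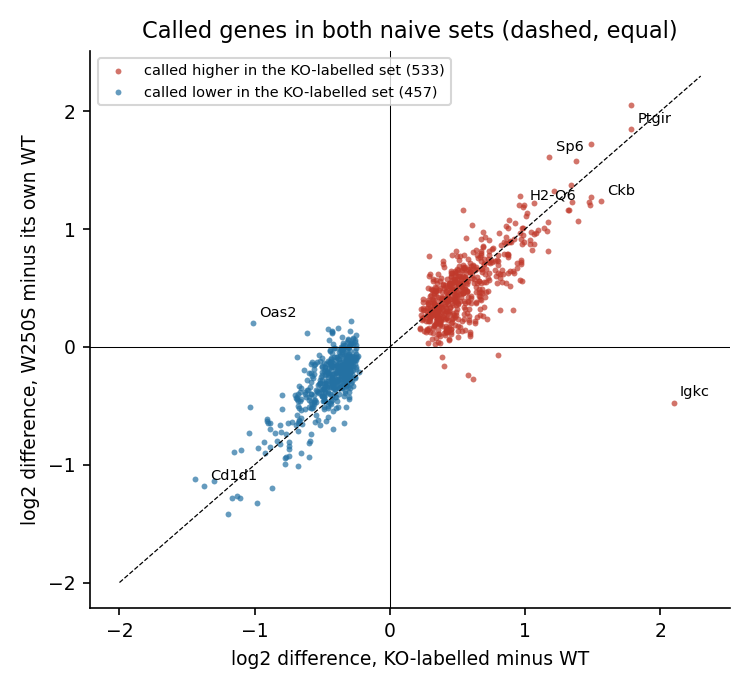
Log2 difference in W250S against its own WT (y axis) and in KO-labelled against WT naive CD4 T cells (x axis) for the 533 higher (red) and 457 lower (blue) genes called in the KO-labelled set; the dashed line marks equal differences. Pearson r is 0.918, which does not measure closeness to that line. Median differences, KO-labelled set first, are 0.491 and 0.465 for the higher genes and -0.416 and -0.257 for the lower genes. Oas2 (-1.01 and 0.20) and Igkc (2.10 and -0.47) lie away from the line.

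Open chromatin at the starts of these genes was read from the ATAC-seq libraries, in which 4 of 47000 tested peaks were called by edgeR (0.00851%), 3 higher (0.00638%) and 1 lower (0.00213%), and 4641 had an unadjusted p under 0.05 (9.87%). All 4 peaks are annotated at a start. The peak at Dip2c (mm10, 13:9276290-9277455) held 48.2, 56.4 and 48.6 CPM (reads in peaks) in the KO-labelled and 28.1, 17.1 and 13.7 in the WT libraries (log2 difference 1.42; adjusted p = 0.0486 for each of the 4 peaks), and its transcript was at 3.71, 4.42, 4.68 and 5.25 against 2.97, 2.16 and 2.07 CPM (0.70, adjusted p = 0.00643). The peak at Abcd2 (15:91191513-91192358), a peroxisomal fatty acid transporter, had 9.19 to 11.2 against 2.79 to 4.02 (1.62), with the transcript at 1.04 to 1.72 against 0.140 to 0.186 CPM. The Abcd2 transcript passed the RNA filter only through the KO-labelled libraries. At Tor4a (2:25195314-25196892), a torsin family ATPase, the peak fell from 54.2, 56.9 and 54.3 in WT to 37.0, 36.6 and 35.5 (-0.60), and the transcript was at 35.7, 38.8, 41.1 and 40.4 against 60.6, 60.5 and 65.2 CPM (-0.66, adjusted p = 0.000233). The remaining peak lay at the start of Mgll (6:88724222-88724922; 1.35), whose transcript was too low to test. Dip2c, Abcd2 and Tor4a were chosen for their peaks. These 4 calls depended on the library and tool. Without WT library 1 edgeR called 1882 peaks higher and 188 lower, and without any other single library 0. DESeq2 called 67 of the 32991 peaks it tested, of which 12 lay at the start of a gene called in RNA, all 12 in the direction of the transcript. Without a call required, 67.8% of the start peaks of genes called higher in RNA were above 0 in edgeR. For genes called lower it was 23.7%. Depth leaned with the label, at 13.7, 9.61 and 13.5 M reads in peaks in the KO-labelled ATAC-seq libraries. The WT libraries held 6.19, 6.56 and 9.71 M, so WT library 1 was the shallowest and WT library 3 lay above KO-labelled library 2. The part of depth in these calls, and in the start peak differences below, was not tested.

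The upstream sequences of Tor4a (2:25196814-25197063, - strand, 79 bases of it inside the called peak) and Dip2c (13:9276275-9276524, + strand, 235 bases inside), shown because both peak and transcript were called in 1 direction, hold no CCGGAAG word. No letters are in capitals for that reason.
Tor4a: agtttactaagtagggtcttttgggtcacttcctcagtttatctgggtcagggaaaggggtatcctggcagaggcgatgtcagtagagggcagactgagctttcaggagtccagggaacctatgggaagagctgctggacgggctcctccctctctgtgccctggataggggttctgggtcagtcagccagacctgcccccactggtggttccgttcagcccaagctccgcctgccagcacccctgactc
Dip2c: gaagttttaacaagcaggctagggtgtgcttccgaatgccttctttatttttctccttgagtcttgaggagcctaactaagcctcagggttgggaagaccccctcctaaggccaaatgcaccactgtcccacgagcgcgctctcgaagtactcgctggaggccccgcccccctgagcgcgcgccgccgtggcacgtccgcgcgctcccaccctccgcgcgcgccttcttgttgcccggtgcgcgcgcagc

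Among genes called in RNA with a tested peak at the start, peak differences leaned in the direction of the transcript. For 454 genes called higher in RNA the median start peak difference was 0.092, with 308 above 0 (67.8%); for 372 called lower it was -0.093, with 88 above 0 (23.7%); and for 7781 not called it was -0.022, with 42.6% above 0. Peaks with an unadjusted p under 0.05 were higher for 104 and lower for 8 of the genes with raised transcripts, and higher for 21 and lower for 62 of those with lowered transcripts, where 648 were higher and 351 lower among the 7781 genes not called and 773 and 421 among all 8607. Pearson r between peak and transcript difference was 0.493 over the 826 called genes and 0.224 over all 8607, again across genes. Of the 15 largest increases 13 had a start peak difference above 0, the exceptions being Ahnak (-0.17) and Kcna2 (-0.02), and of the 15 largest decreases the 12 with a start peak had one below 0. Single start peaks stood at 0.95 for Gpc1 (unadjusted p = 6.57e-05), 1.22 for Ppic (0.0179), 0.42 for Ptgir (0.0737) and -0.21 for Cd1d1 (0.0436), and none of the 27 genes with a start peak among the 30 passed the adjusted threshold.

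**Figure D5:**
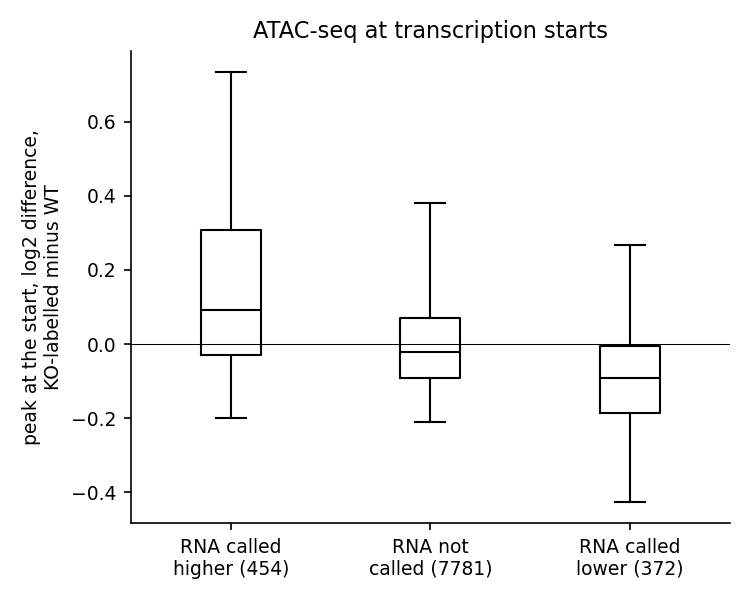
Log2 difference of the ATAC-seq peak at the start of a gene, KO-labelled minus WT (y axis), for genes called higher, not called or called lower in RNA; boxes span the quartiles with the median as a line, and whiskers run from the 5th to the 95th percentile. Medians are 0.092, -0.022 and -0.093.

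In untreated macrophages, where the Elf4 transcript was reduced, the same genes were read side by side and not tested. Of 387 genes called higher in naive cells and measured there, 74.4% had a positive KO difference, and of 401 called lower 334 (83.3%) had a negative one, where 61.3% of all 9101 genes shared a sign. KO and WT macrophage libraries did not overlap in the naive direction for 68 of the higher (17.6%) and 129 of the lower genes (32.2%), where 857 of all 9101 genes (9.42%) did so. In the opposite direction they did not overlap for 8 (2.07%) and 4 (0.998%), beside 3.57% of all genes. Ptgir was at 4.26, 5.25 and 5.01 CPM in KO and 3.05, 3.59 and 2.54 CPM in WT macrophages. Arpc1b was at 884, 869 and 742 against 1012, 1071 and 1041 CPM, Elf2 at 75.1, 74.4 and 74.2 against 87.4, 88.3 and 85.1 CPM, and Tnfrsf13b at 29.6, 30.7 and 28.4 against 37.0, 38.8 and 40.8 CPM. Nav2, higher in KO-labelled T cells, was lower in KO macrophages (43.4 to 47.0 against 51.6 to 69.1 CPM).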

How the data were processed

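The authors' deposited RNA-seq tables hold CPM, normalised per library; aligner, counter and annotation are not given in the sources used here. The submitters' processing notes name mm10, BWA, Bowtie2, MACS2, DESeq2 and Partek 10.0.21.0411, with no roles. Columns sum to 472848 to 494423 CPM over the 20214 listed genes. Values never fall below 0.0001. Of low values, 89.2 to 90.6% were whole multiples of 1 step (tolerance 0.01), so reads were not recovered and RNA had no count test. For ATAC-seq the authors deposited expected count values (estimated counts, 1 value per library for each of 86911 peaks); how peaks were called is not given in the sources used here.

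RNA was tested on log2(CPM + 1) by limma 3.58.1 in R 4.3.3 (lmFit; eBayes, trend on), keeping genes that reached 1 CPM in 3 libraries. Genes under 0.05 after Benjamini-Hochberg adjustment over all of them count as called. Every adjusted p for RNA comes from limma, and ± after a log2 difference is the SE. The comparison with W250S fitted both tables at once, leaving out 17 symbols that had become dates. For ATAC-seq, rounded values went through edgeR 4.0.16 (TMM, filterByExpr, quasi-likelihood F test), and DESeq2 1.42.0 served as alternative. Fits were tested on simulated data.

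Named genes are Elf4, the 15 largest and 5 most abundant called genes each way (mean of at least 5 CPM, no overlap, no predicted models), and per list at most 4 called genes plus 2 abundant ones without a call. The members and lists were chosen with earlier results of these data known. Same-numbered KO-labelled and WT libraries deviated with r of 0.164, 0.064 and -0.039, so numbers were not taken as pairs. The highest r between a KO-labelled and a WT library was that of KO-labelled library 4 and WT library 3, at 0.348. Alternatives covered pseudocount, filter, scaling, variance model, replicate block and left-out libraries.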

Additional observations from a re-analysis of the deposited data

Results flagged for a closer look

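In 178 groups of 4 KO-labelled values examined (the named genes and list sums), 5 had 1 library standing apart from the other 3 (2.81%), where chance gives about 1 in 20. Junb, an immediate early gene, was at 142.6 CPM in KO-labelled library 4 and at 744.1 to 854.3 CPM in the others. Elf1, an ETS factor, was at 194.9 CPM in library 4 against 219.7 to 220.9 CPM. Pqlc3 was at 4.551 CPM in library 4 against 3.606 to 3.739 CPM. Ulbp1 was at 7.123 CPM in library 3 against 4.698 to 4.885 CPM. S100a10, a calcium-binding protein gene, was at 59.45 CPM in library 2 against 70.28 to 71.98 CPM. Of these, Pqlc3 and Ulbp1 were called lower, and both calls held without that library.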

How the results depend on the processing

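The Elf4 difference, not called, ranged from -0.061 to 0.014 over all alternatives, with adjusted p from 0.694 to 0.99. Of 98 called genes named other than Elf4, 52 kept the call under every alternative and 46 lost it under at least 1; of those not called, 16 gained it somewhere, and 0 of the 98 reversed direction. Genes chosen after their values were seen, such as Samhd1, Dip2c and Tor4a, were not recomputed. The number of genes higher was 261 to 670 and of genes lower 205 to 710 when single libraries were left out. With at least 5 CPM required, 739 were called, 359 of them (48.6%) higher. With the replicate block 752 were higher and 845 lower. KO-labelled library 4 had no WT library of its number, so in that setting it added nothing to the difference. In the W250S set median-ratio scaling gave 210 higher and 169 lower, the replicate block 998 and 263, and leaving out single libraries 160 to 449 and 39 to 108. The test of the KO-labelled minus the W250S difference called 0 genes under every alternative run. ATAC-seq peaks numbered 64 higher and 3 lower with DESeq2, 51 higher with no filter on low counts, 0 and 0 with the replicate block, and 0 to 1882 higher and 0 to 188 lower when single libraries were left out. The cause of these shifts was not tested. Same-numbered libraries deviated with r of 0.192, 0.033 and 0.324 in the W250S set and -0.103, -0.017 and 0.027 in ATAC-seq, so no set was taken as paired. RNA depth as reads is unknown, and 3 or 4 libraries per group limit what small differences can pass.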
